A study of Mus musculus with 6 samples.

Results

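The genes of the opioid system were compared between 2 neighbouring parts of the mouse ventromedial hypothalamus (VMH): the precursors Penk, Pdyn and Pnoc and the receptors Oprm1, Oprd1, Oprk1 and Oprl1. They were chosen by symbol as 3 precursor and 4 receptor genes of this family, and all 7 were found among the 47480 genes of the table. A further opioid precursor, Pomc, was not among them and is treated with the pathway genes. All 7 also reached a mean normalised read count of at least 10 over the 6 libraries, the minimum for testing, as did 14522 genes in all. The tissue was cut by laser capture from frozen coronal sections of female mice, with 3 libraries of VMHpvlm and 3 of VMHpvll. Every animal carried VgluT2-cre and Ai6, a Cre-dependent green reporter that marks cells in which the VgluT2 (Slc17a6) promoter is or was active, so both regions share these alleles. The captured areas hold neurons, glia and vessels together, and the sources used here do not give the age of the mice or the criteria for the borders. Each region has a library titled F19, another titled F20 and 1 more titled KH_161103, and libraries of the same title were treated as pairs. The KH_161103 titles end in letters that name no region, and their region was taken from the source name.

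Opioid peptides are cut from large precursors in the secretory pathway and released from dense core vesicles. Enkephalins, from Penk, act mainly at the delta and mu receptors (Oprd1 and Oprm1), dynorphins, from Pdyn, mainly at the kappa receptor (Oprk1), and nociceptin, from Pnoc, at its own receptor Oprl1. All of these receptors couple to inhibitory G proteins, which open GIRK potassium channels, close presynaptic calcium channels and lower cyclic AMP. In the hypothalamus, opioids are known for effects on feeding, reproductive hormones and sexual receptivity, and the lateral part of the VMH is a classical site of enkephalin neurons that respond to oestrogen.

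Depth ran from 7157831 to 11293159 reads per library. A single gene, Gm42418, held 15.1%, 11.6% and 14.3% of the reads in VMHpvlm (F19, F20 and KH_161103), against 17.9%, 15.1% and 14.4% in VMHpvll, so that its share was lower in VMHpvlm in 3 of 3 pairs; its part in the results was not tested. Slc17a6, which marks the glutamatergic neurons of the VMH, stood at 4665 ± 139 normalised reads in VMHpvlm and 4946 ± 17.1 in VMHpvll (SD, n = 3 each), and Slc17a7, the main vesicular glutamate transporter of the cortex, at 0.463 and 1.47. Marker lists differed between the regions. For comparison, limma called 10.5% of all tested genes higher in VMHpvlm and 9.48% higher in VMHpvll. Of 6 VMH markers, 5 were higher in VMHpvlm and 1 in VMHpvll, with a summed level of 4759 to 5123 in VMHpvlm and 3308 to 3830 in VMHpvll. The 5 differed widely, from 1.17-fold for Nkx2-1 to 9.77-fold for Nr5a1, at 308 ± 19.5 in VMHpvlm and 31.55 ± 6.73 in VMHpvll. Nptx2, the 1 that went the other way, stood at 918 ± 48.5 in VMHpvlm and 1178 ± 29.8 in VMHpvll. Of 9 markers of GABAergic neurons, 7 could be tested and all 7 were higher in VMHpvll, with a summed level of 2271 to 2476 in VMHpvlm and 3711 to 4309 in VMHpvll. Of 8 oligodendrocyte markers 7, of 7 astrocyte markers 3 and of 7 vessel markers 5 were higher in VMHpvll, and the rest of these were not called. The summed levels in VMHpvlm and VMHpvll were 11340 to 13040 and 15420 to 16520 for oligodendrocytes, 25210 to 27320 and 30310 to 35250 for astrocytes, and 1256 to 1280 and 1783 to 1873 for vessels. Of 6 microglia markers, 0 were called by limma, edgeR or DESeq2 and 0 had an unadjusted limma p below 0.05, at 619 to 662 in VMHpvlm and 605 to 740 in VMHpvll. Of 7 markers of the neighbouring arcuate nucleus, 4 could be tested, of which 2 were higher in each region, at 150 to 371 in VMHpvlm and 101.3 to 168 in VMHpvll; Kiss1 was at 0 in every library and Agrp averaged 3.18 in VMHpvlm and 1.65 in VMHpvll. The part of cell composition in the differences below was not tested, and fewer cells of a type and less RNA per cell cannot be told apart in such samples.

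The opioid genes divided by region. Penk, Pdyn, Oprd1 and Oprk1 were higher in VMHpvlm, Oprm1 was higher in VMHpvll, and Pnoc and Oprl1 were not called. The standard errors (SE) and p-values of limma draw largely on a variance pooled over genes. Calls are from limma with the pair as a block, at a Benjamini-Hochberg adjusted p below 0.05 over all tested genes. Thus 4 of 7 members were higher in VMHpvlm, against 10.5% of all tested genes, and 1 of 7 was higher in VMHpvll, against 9.48%, so that 5 of 7 were called where 20% of all genes were. The ranges of the regions did not overlap for the same 5 members, against 28.0% of all tested genes. Oprd1 and Oprk1 differed by at least 1 on the log2 scale, a size reached with a call by 2.70% of all tested genes. The members and the gene lists below were chosen with earlier results of these data known, so such shares describe them and test nothing.

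**Figure D1:**
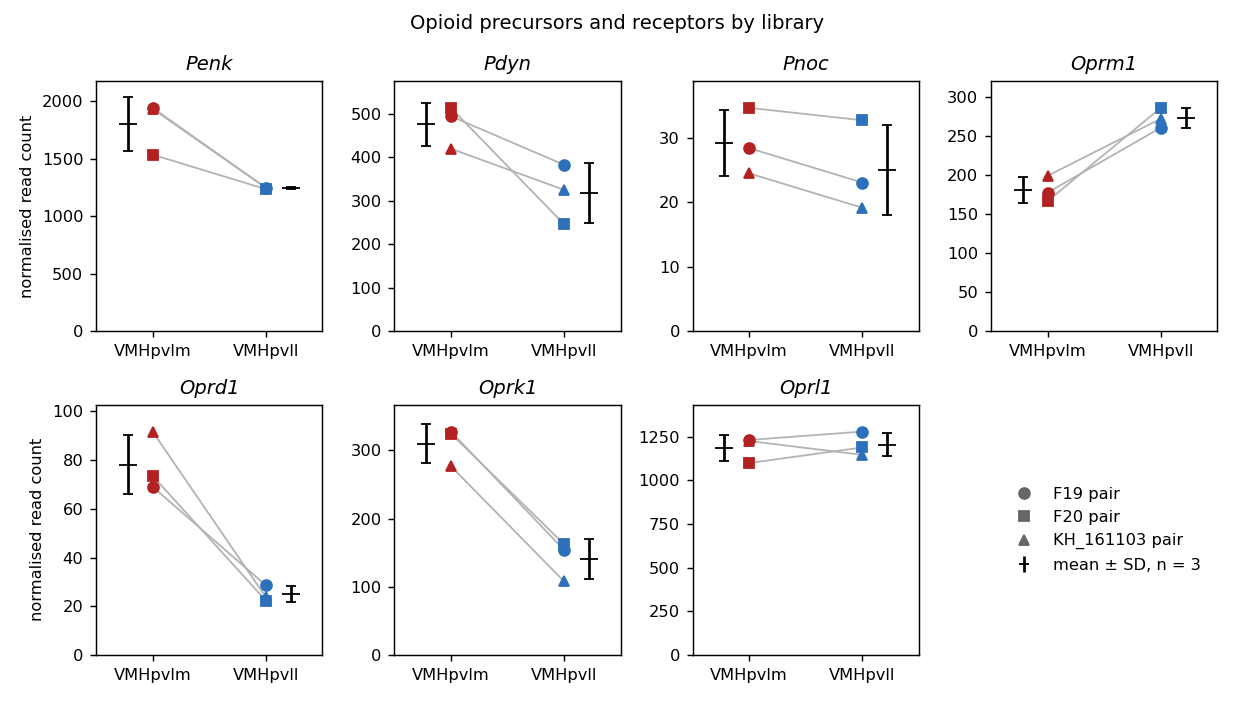
Normalised read counts of the 7 genes in each library (linear axes from 0), with lines joining libraries of a pair, a symbol for each pair, and the regional mean and SD (n = 3) in black. Penk, Pdyn, Oprd1 and Oprk1 lay higher in every VMHpvlm library than in any VMHpvll library, Oprm1 lay lower, and Pnoc and Oprl1 overlapped.

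Among the precursors, Penk, the source of Met- and Leu-enkephalin, had 1944, 1537 and 1935 normalised reads in VMHpvlm (F19, F20 and KH_161103), against 1249, 1236 and 1247 in VMHpvll. The VMHpvll libraries lay close together and the F20 library of VMHpvlm was the lowest of its region, yet still above all of VMHpvll. VMHpvlm averaged 1805 ± 233 and VMHpvll 1244 ± 6.87, which is 1.45-fold (log2 difference 0.53 ± 0.05 SE, limma Benjamini-Hochberg adjusted p = 5.02e-10). Within pairs the log2 difference was 0.64, 0.31 and 0.63. Penk lies on the reverse strand of mm10 chromosome 4 from 4133531 to 4138819. Of its exon bases, 14.3% are shared with A830012C17Rik on the opposite strand; the sources used here do not say whether the counting used strand. That transcript averaged 6.38 reads in VMHpvlm and 0.5 in VMHpvll.

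Pdyn, the dynorphin precursor, had 494, 514 and 420 normalised reads in VMHpvlm, against 383, 246 and 325 in VMHpvll. All 3 VMHpvlm libraries were above all 3 VMHpvll libraries, with the widest gap in the F20 pair. VMHpvlm averaged 476 ± 49.6 and VMHpvll 318 ± 68.7, which is 1.498-fold (log2 difference 0.60 ± 0.11 SE, limma adjusted p = 0.000745). The log2 difference was 0.37 in F19, 1.06 in F20 and 0.37 in KH_161103, and it was 0.37 without the F20 pair (limma adjusted p = 0.000738). That p-value rests even more on the variance pooled over genes, since fewer pairs were left. With DESeq2 on the recovered reads the adjusted p of Pdyn was 0.105. When limma's prior variance was fitted without trend or robust weights, the adjusted p was 0.17 for Pdyn, 0.0921 for Penk and 0.0716 for Oprm1.

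Pdyn lies on the reverse strand of chromosome 2 from 129686565 to 129699844. Its last coding exon, exon 4 of 4, encodes the Leu-enkephalin core 3 times, each time between pairs of basic codons, and convertases cut the precursor at such pairs of basic residues, among them the pair before each core. The stretches are shown because they are the part of the transcript that becomes the opioid peptides: they open alpha-neoendorphin, dynorphin A and dynorphin B, in that order. Capitals mark the 15 bases of the core, read 5′ to 3′ on the transcript strand of the GENCODE M21 annotation, with coordinates on mm10.
Core 1, chr2:129688232-129688258: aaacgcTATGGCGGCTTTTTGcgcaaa
Core 2, chr2:129688124-129688150: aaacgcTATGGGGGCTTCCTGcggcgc
Core 3, chr2:129688067-129688093: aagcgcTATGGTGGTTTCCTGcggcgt

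Pnoc, the nociceptin precursor, was the lowest of the 3 precursors among the members. It had 28.4, 34.7 and 24.5 normalised reads in VMHpvlm, against 23.1, 32.8 and 19.2 in VMHpvll. Each value rested on 21 to 27 reads, and the regions overlapped. Its log2 difference was 0.24, with a 95% interval from -0.34 to 0.81 (limma adjusted p = 0.635), so that differences from 0.793-fold to 1.75-fold were not set apart at this depth. Pnoc lies on the reverse strand of chromosome 14 from 65400673 to 65425472.

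Among the receptors, Oprd1, the delta receptor, showed the largest difference of the 7 genes. It had 69.1, 73.6 and 91.7 normalised reads in VMHpvlm, against 28.6, 22.3 and 23.7 in VMHpvll. Every VMHpvlm library was far above every VMHpvll library. Oprd1 lies on the reverse strand of chromosome 4 from 132110726 to 132144486. VMHpvlm averaged 78.1 ± 12 and VMHpvll 24.9 ± 3.28, which is 3.14-fold (log2 difference 1.61 ± 0.23 SE, limma adjusted p = 3.26e-07). The counts behind it were low, at no less than 51 reads in VMHpvlm and 15 to 26 in VMHpvll, and the log2 difference was 1.24, 1.68 and 1.91 in the pairs, in the order above.

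Oprk1, the kappa receptor, had 328, 325 and 277 normalised reads in VMHpvlm, against 154, 162 and 108 in VMHpvll. The KH_161103 libraries were the lowest of both regions, and the regions stayed well apart. VMHpvlm averaged 310 ± 28.5 and VMHpvll 141 ± 29.4, which is 2.19-fold (log2 difference 1.15 ± 0.11 SE, limma adjusted p = 2.45e-11). The log2 differences of the pairs were 1.09, 0.996 and 1.36. Oprk1 spans 5588466 to 5606131 on the forward strand of chromosome 1.

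Oprm1, the mu receptor and the main target of morphine, went the other way. It had 177, 167 and 199 normalised reads in VMHpvlm, against 261, 286 and 272 in VMHpvll. Every VMHpvlm library was below every VMHpvll library. The means were 181 ± 16.5 in VMHpvlm and 273 ± 12.7 in VMHpvll, 1.51-fold lower in VMHpvlm (log2 difference -0.59 ± 0.11 SE, limma adjusted p = 2.99e-05), with -0.55, -0.78 and -0.45 in the pairs. The median log2 difference was negative for markers of GABAergic neurons (-1.40), vessels (-0.56), oligodendrocytes (-0.41), astrocytes (-0.12) and microglia (-0.037). It was also negative for glutamatergic neurons (-0.085, from Slc17a6 alone), and positive for VMH (0.73) and arcuate (0.089) markers. The part of cell composition in the Oprm1 difference was not tested. Oprm1 spans 6758506 to 7038198 on the forward strand of chromosome 10, and 1.19% of its exon bases overlap Ipcef1 on the other strand.

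Oprl1, the nociceptin receptor, had 1231, 1099 and 1225 normalised reads in VMHpvlm, against 1280, 1188 and 1146 in VMHpvll. The ranges overlapped, and 1 pair was higher in VMHpvlm and 2 in VMHpvll. Its log2 difference was -0.02, with a 95% interval from -0.13 to 0.08 (limma adjusted p = 0.826), which corresponds to 0.913-fold to 1.06-fold. It lies on the forward strand of chromosome 2 from 181715016 to 181720985. All 7 genes are annotated as protein-coding, and a value is a gene total, so splice forms, of which GENCODE M21 lists 31 for Oprm1, were not separated.

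**Figure D2:**
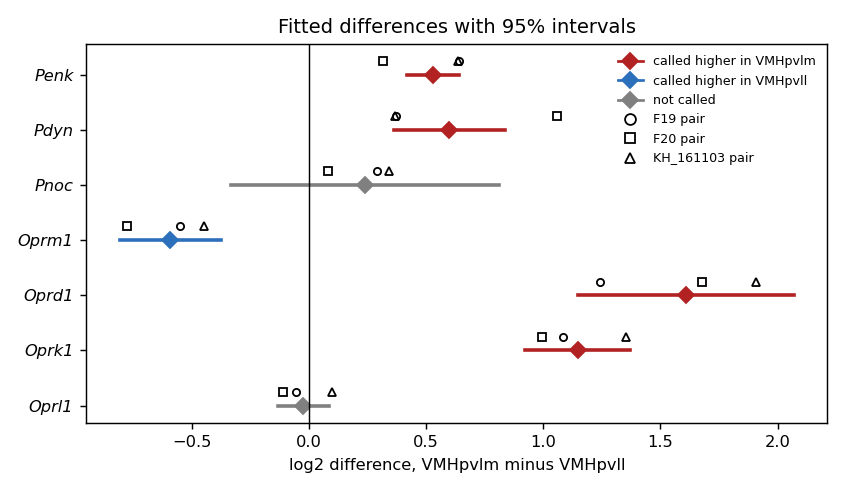
Log2 difference of each of the 7 genes (VMHpvlm minus VMHpvll, from limma) with its 95% interval, coloured by call, with the difference of each pair as open symbols above. Oprd1 (1.61) and Oprk1 (1.15) had the largest differences, Oprm1 was the only member below 0 with a call, and the F20 pair of Pdyn (1.06) stood apart from the others.

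How far the members resemble each other bears on whether reads could be split between them. The coding sequences of the receptors were identical at 63.7% to 71.7% of aligned bases, and the longest run of bases shared by any transcripts of 2 receptors was 25, between Oprk1 and Oprl1. Between the precursors the identity was 59.1% to 59.9%, and the longest shared run was 15 bases, between Penk and Pdyn.

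The opposite changes altered the order of the receptors. Levels were divided by the exon length of each gene to compare genes, as normalised reads per kilobase of exon. Penk was the most abundant member in both regions, at 1105 ± 142 per kilobase in VMHpvlm and 761 ± 4.21 in VMHpvll, above 98.8% and 97.7% of tested genes of known length. Oprl1 was the most abundant receptor, at 316 ± 19.8 in VMHpvlm and 321 ± 18.2 in VMHpvll, and Pdyn came next, at 165 ± 17.2 in VMHpvlm and 110 ± 23.8 in VMHpvll. Behind them the order in VMHpvlm was Oprk1 (33.9 ± 3.11 per kilobase), Oprm1 (22.5 ± 2.05), Oprd1 (19.4 ± 2.98) and Pnoc (13.6 ± 2.38). In VMHpvll it was Oprm1 (34.0 ± 1.58), Oprk1 (15.4 ± 3.21), Pnoc (11.6 ± 3.24) and Oprd1 (6.19 ± 0.815). Neighbours in these orders overlapped in range for Oprm1 and Oprd1 in VMHpvlm and for Oprk1 and Pnoc in VMHpvll, and the other neighbours did not overlap.

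Per kilobase, the ratio of Oprk1 to Oprm1 was 1.62, 1.71 and 1.223 in VMHpvlm, against 0.519, 0.499 and 0.348 in VMHpvll. Oprk1 thus exceeded Oprm1 in every VMHpvlm library, and Oprm1 exceeded Oprk1 in every VMHpvll library. The length of exon used for each gene sets on which side of 1 a ratio falls, but not its 3.34-fold difference between the regions. The ratio of Oprd1 to Oprm1 was 0.861 ± 0.0743 in VMHpvlm and 0.183 ± 0.0325 in VMHpvll, or 4.70-fold higher in VMHpvlm. For both ratios the exact two-sided permutation p was 0.1, the smallest that 3 against 3 libraries allow. It was 0.162 after Benjamini-Hochberg adjustment over 13 such relations. These permutations did not use the pairs. The ratio of Pdyn to Penk was 0.152 ± 0.0340 in VMHpvlm and 0.145 ± 0.0306 in VMHpvll (exact permutation p = 0.8), and the regions overlapped.

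Oprl1 made up most of the summed receptor level per kilobase, at 80.6% ± 0.836 in VMHpvlm and 85.2% ± 0.799 in VMHpvll. Oprk1 held 8.68% ± 1.10 in VMHpvlm and 4.09% ± 0.724 in VMHpvll, and Oprd1 held 4.96% ± 0.691 in VMHpvlm and 1.64% ± 0.155 in VMHpvll. The share of Oprm1 was 5.75% ± 0.335 in VMHpvlm and 9.04% ± 0.763 in VMHpvll. Each of these 4 shares had the same sign of difference in 3 of 3 pairs and an exact permutation p of 0.1, the smallest possible (0.162 adjusted over 13 relations). These shares depend on the exon lengths: without division by length, the difference in share was -6.33 percentage points for Oprm1, against -3.29 with it, and 9.15 for Oprk1, against 4.59. The summed level of Oprm1, Oprd1 and Oprk1 was 75.8 ± 1.78 per kilobase in VMHpvlm and 55.6 ± 3.73 in VMHpvll, 1.36-fold higher in VMHpvlm with no overlap (exact permutation p = 0.1). With Oprl1 added, the totals were 391.6 ± 20.9 and 377 ± 20.3 and overlapped. The summed level of Penk, Pdyn and Pnoc was 1283 ± 130 per kilobase in VMHpvlm and 883 ± 25.4 in VMHpvll, 1.45-fold higher in VMHpvlm. Their shares of this total, which leaves out Pomc, overlapped: Penk held 85.9% ± 2.77 in VMHpvlm and 86.3% ± 2.04 in VMHpvll.

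**Figure D3:**
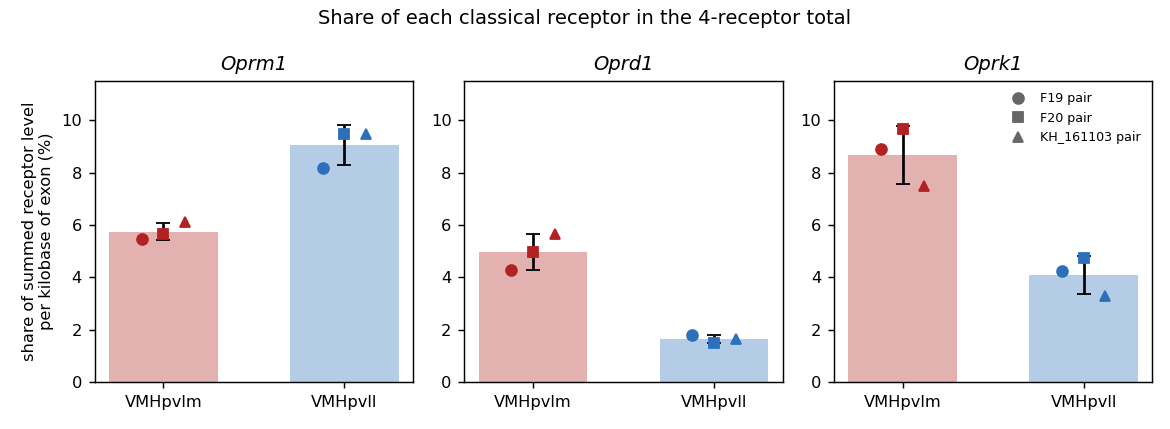
Share of Oprm1, Oprd1 and Oprk1 in the summed level of the 4 receptors per kilobase of exon, as bars for the mean with SD (n = 3) and points for each library. Oprd1 (4.96% against 1.64%) and Oprk1 (8.68% against 4.09%) held larger shares in VMHpvlm than in VMHpvll, and Oprm1 (5.75% against 9.04%) a smaller one.

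The promoter windows of Oprd1 and Oprm1, receptors that went in opposite directions, differ in base composition, and both are shown for that reason. RefSeq windows on GRCm38.p6 were matched for 4 of the 7 genes, Pdyn, Oprm1, Oprd1 and Oprl1. The 250 bases before the start site of Oprd1 on the reverse strand were 80.0% G or C and held 34 CpG dinucleotides. The window of Oprm1 on the forward strand, before the start site with the most annotated coding transcripts nearby, was 50% G or C with 4 CpG, and over 32851 windows the medians were 52.4% and 6 CpG. The window of Pdyn, also higher in VMHpvlm, was 57.2% G or C with 8 CpG, and that of Oprl1 was 54.8% with 1. Oprk1 had no matched window, and any link of base composition to the differences was not tested. Capitals mark CpG, 5′ to 3′ on the gene's strand.
Oprd1, chr4:132144487-132144736: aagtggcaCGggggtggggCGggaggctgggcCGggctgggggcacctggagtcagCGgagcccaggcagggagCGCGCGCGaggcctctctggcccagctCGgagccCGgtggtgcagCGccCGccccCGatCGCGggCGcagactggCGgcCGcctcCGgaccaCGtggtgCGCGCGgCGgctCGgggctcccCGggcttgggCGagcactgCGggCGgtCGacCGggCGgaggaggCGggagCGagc
Oprm1, chr10:6788320-6788569: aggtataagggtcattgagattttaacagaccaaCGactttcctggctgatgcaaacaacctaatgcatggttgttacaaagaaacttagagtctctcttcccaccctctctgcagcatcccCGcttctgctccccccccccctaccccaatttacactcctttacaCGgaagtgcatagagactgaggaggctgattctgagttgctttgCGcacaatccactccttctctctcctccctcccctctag

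The windows of the 4 genes were searched on both strands for TGACGTCA (the cyclic AMP response element), TGCGTCA (a variant of it), TGACTCA (AP-1), CAAGGTCA (the site of Nr5a1) and the full oestrogen response element. None of these letters was found in them, and the motifs were present in 1.55%, 1.75%, 4.46%, 1.33% and 0.02% of all windows of the same length. CAAGGTCA and the oestrogen response element share the letters AGGTCA.

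The genes whose levels followed those of the members most closely were found by Pearson's r of log2(value + 1) over the 6 libraries, a description in which region differences and pairs both count. For Oprk1 they were Nell1 (r = 0.996), Gria4 (0.996) and Deptor (0.995), for Oprd1 Ezr, Atp6v1c2 and Rap2b (0.995 each), and for Oprm1 Slc8a3, Slc12a4 and Ckmt1 (0.995, 0.995 and 0.993). For Penk they were Trio (0.995), Zfp933 (0.993) and Sema3a (0.991), and for Pdyn Pds5a (0.994), Bhlhe40 (0.987) and Atp2c1 (0.985). Deptor had 880 normalised reads in VMHpvlm and 397 in VMHpvll, and Nell1 351 and 176, differences close in size to that of Oprk1. Gria4 had 1560 in VMHpvlm and 1290 in VMHpvll, a smaller difference, so a high r does not mean a like size of difference. For the members without a call the closest genes were 2210016L21Rik, Smim18 and Adarb1 for Pnoc (0.996 to 0.989) and Ece2, Ascc2 and Crem for Oprl1 (0.984 to 0.976). After the pair means were subtracted, r was at least 0.9999 for the closest genes of Oprk1 (Map7, Pitpnm1 and Zbtb7c), Penk (Sema3d, Atrn and Nae1) and Pdyn (Gm38157, Ylpm1 and Efemp1), values that rest on 3 pair differences.

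Among other genes of the opioid pathway, calls went in both directions. Of 55 tested genes in 10 lists, 12 (21.8%) were higher in VMHpvlm, against 10.5% of all tested genes, and 10 (18.2%) in VMHpvll, against 9.48%. Their median log2 difference was -0.01, against 0.00 over all tested genes. The counts were 6 and 7 without the pair block, 7 and 4 with DESeq2, and 4 and 2 with a prior variance without trend or robust weights. Under the last setting 16 of the 22 calls were lost, and Ogfrl1, Opcml, Pcsk1, Rgs4 and Kcnj3 were called under all 14 alternatives. Pomc, the precursor of beta-endorphin, had 192, 328 and 99.0 normalised reads in VMHpvlm, against 52.8, 76.0 and 14.6 in VMHpvll. It was higher in VMHpvlm in 3 of 3 pairs, with a log2 difference of 2.21 ± 0.17 SE (limma adjusted p = 4.61e-14). The levels varied widely between libraries of a region, and without the pair block the limma adjusted p was 0.232. Pomc is itself a marker of the arcuate nucleus, where Agrp and Kiss1 are also made, and these stood at or near 0, as given above. Npy, made together with Agrp in arcuate neurons, averaged 25.6 ± 14.2 in VMHpvlm and 6.36 ± 3.02 in VMHpvll. The arcuate markers Th (13.9 ± 8.58 in VMHpvlm and 42.7 ± 4.8 in VMHpvll) and Ghrh (12.4 ± 10.6 and 31.75 ± 14.8) went the other way and were called higher in VMHpvll. The part of arcuate cells in the Pomc difference was not tested.

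Among genes related to opioids by name, Opcml, a neuronal cell adhesion protein first found as an opioid-binding protein, was 1.95-fold higher in VMHpvlm, at 1272 ± 107 in VMHpvlm and 653 ± 34.8 in VMHpvll (limma adjusted p = 3.90e-17). Ogfr, a receptor for Met-enkephalin that is not a G protein-coupled receptor, was lower in VMHpvlm at 159 ± 21.3, against 211 ± 4.82 in VMHpvll, and its relative Ogfrl1 at 770 ± 18.2, against 1211 ± 74.0. The Ogfr call was lost with DESeq2 and without the KH_161103 pair.

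Of 6 genes for precursor processing, 3 were higher in VMHpvlm (50%, against 10.5% of all tested genes) and 2 in VMHpvll (33.3%, against 9.48%). Pcsk1, the prohormone convertase that makes the first cuts in many precursors, was 2.17-fold higher in VMHpvlm, with 329, 422 and 321 normalised reads in VMHpvlm, against 137, 191 and 166 in VMHpvll (log2 difference 1.11 ± 0.10 SE, limma adjusted p = 7.67e-12). Its regions did not overlap. Pcsk2, which makes later cuts, was lower in VMHpvlm at 2399 ± 122, against 2723 ± 137 in VMHpvll, a call lost with DESeq2 and without the KH_161103 pair. The convertase inhibitor Pcsk1n (1.16-fold) and the Pcsk2 chaperone Scg5 (1.14-fold) were called higher in VMHpvlm, but their regions overlapped and both calls were lost without the pair block (limma adjusted p = 0.11 for Pcsk1n and 0.0978 for Scg5). The Scg5 call was also lost with DESeq2 and without the F19 or the KH_161103 pair. Of 8 peptidases that degrade opioid peptides, 1 was called (12.5%, against 20% of all tested genes), Ace, at 443 ± 19.3 in VMHpvlm and 536 ± 59.9 in VMHpvll. The Ace call was lost without the pair block (limma adjusted p = 0.0543), with DESeq2 and without the F20 pair.

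Downstream of the receptors, all 4 GIRK channel subunits were called (100%, against 20% of all tested genes). Kcnj3 (808 ± 66.6 in VMHpvlm and 472 ± 11.7 in VMHpvll), Kcnj5 (110 ± 19.99 and 59.5 ± 12.4) and Kcnj9 (544 ± 31.5 and 407 ± 37.5) were higher in VMHpvlm, and Kcnj6 (431 ± 27.4 and 555 ± 64.4) was lower. With a prior variance without trend or robust weights, the calls of Kcnj5, Kcnj6 and Kcnj9 were lost (limma adjusted p = 0.107, 0.172 and 0.114). Rgs4, a GTPase-activating protein that shortens signalling by inhibitory G proteins, had 1960, 2215 and 2336 normalised reads in VMHpvlm, against 3980, 4194 and 4560 in VMHpvll. It was lower in VMHpvlm in 3 of 3 pairs, 1.96-fold over the means (log2 difference -0.97 ± 0.04 SE, limma adjusted p = 2.40e-23). Of the 8 RGS genes, Rgs14 and Rgs20 were higher in VMHpvlm (log2 differences 0.48 and 0.50), and Rgs4 and Rgs19 were higher in VMHpvll (-0.97 and -0.37). Each direction held 25% of these genes, against 10.5% (VMHpvlm) and 9.48% (VMHpvll) of all tested genes. The calls of Rgs14, Rgs19 and Rgs20 were lost with DESeq2, those of Rgs14 and Rgs20 also without the F19 pair, and that of Rgs14 also without the pair block.

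Of the G protein subunits themselves, Gnai2 was lower in VMHpvlm, at 2265 ± 77.3 in VMHpvlm and 2734 ± 45.2 in VMHpvll. Gnai1 (1.11-fold) and Gnaz (1.15-fold) were called higher in VMHpvlm, but their regions overlapped, and Gnaz was higher in 2 of 3 pairs. Both calls were lost without the pair block (limma adjusted p = 0.233 for Gnai1 and 0.206 for Gnaz), with DESeq2 and without the F19 or the KH_161103 pair, and that of Gnai1 also with TMM or upper quartile scaling. Of 7 receptor kinases and arrestins, 5 adenylyl cyclases and 2 calcium channel subunits, 0 were called by limma, edgeR or DESeq2. By limma 20% of all tested genes were called, and each of these lists is too short to be set apart from that share. In these lists the unadjusted limma p was below 0.05 for 0 of the 7, for 1 of the 5 (Adcy6) and for 1 of the 2 (Cacna1b). The last 2 genes were named after their values were seen. Of 4 genes listed for receptor sorting, 1 was called (25%, against 20% of all tested genes). This was Gpr37, lower in VMHpvlm (399 ± 30.8 in VMHpvlm and 472 ± 12.2 in VMHpvll). The Gpr37 call was lost without the pair block (limma adjusted p = 0.073), with DESeq2 and without the F20 or the KH_161103 pair.

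**Figure D4:**
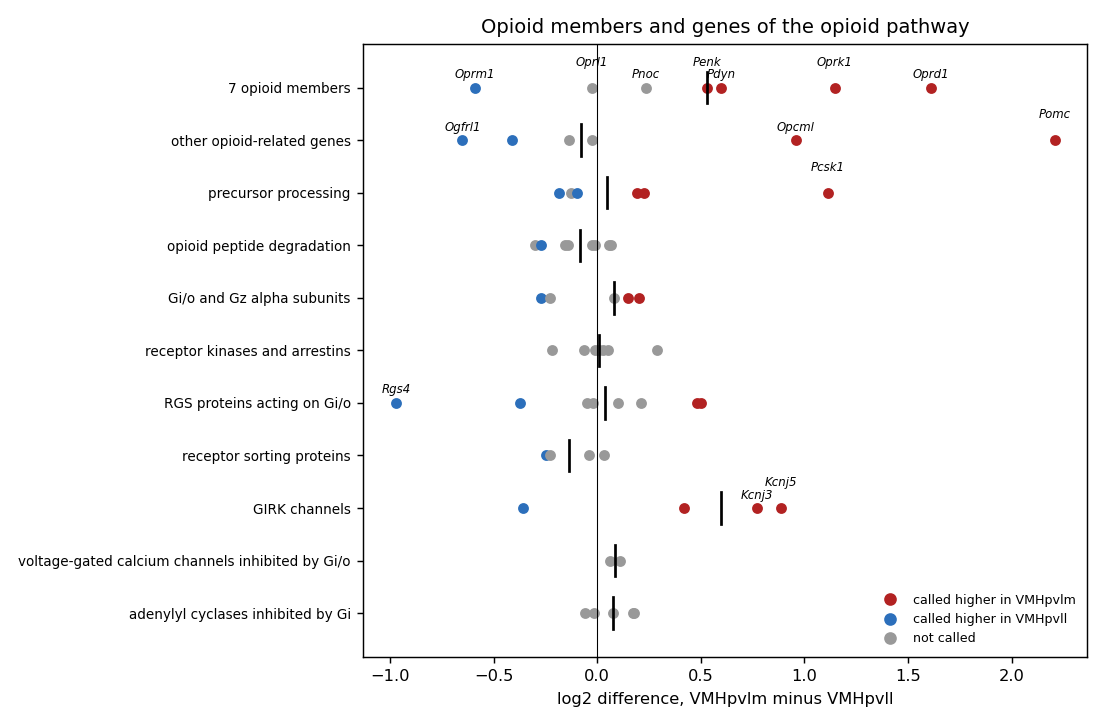
Log2 difference (VMHpvlm minus VMHpvll, from limma) for the 7 opioid genes and for 55 genes in 10 lists of the opioid pathway, 1 point per gene, coloured by call, with a black line at the median of each row. The kinases and arrestins, the calcium channels and the adenylyl cyclases hold 0 called genes, and among the 55 genes Pomc (2.21), Pcsk1 (1.11), Opcml and Rgs4 (-0.97) lie farthest from 0.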

How the data were processed

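RNA of laser-captured VMHpvlm and VMHpvll was made into libraries with a stranded total RNA kit, per the labels' protocols. HISAT2, featureCounts and the mm10 build are named in the submitters' processing notes, and the sources used here do not give the annotation, strand setting or scaling tool. The deposited table holds normalised read counts per gene, a signal that the authors scaled per library. In each library 100% of values came out as whole reads, within 0.05, after division by the value of 1 read, and these recovered reads gave the depths.

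The values were tested as log2(value + 1) for genes with a mean of at least 10, with limma 3.58.1 in R 4.3.3, the pair as a block, and a trended, robust prior variance. The planned test depended on the unit, and limma is the one for normalised values. The pairs come from the names shared by titles: deviations from the region means correlated at 0.255, 0.244 and 0.363 within pairs and at -0.247 to 0.007 between them. Deviations of a gene cancel out within a region, so positive values within pairs make those between pairs negative on average. The labels do not say whether a pair is 1 animal or whether libraries are separate animals, so the spread between libraries may be technical. Each limma SE and p-value also rests on a prior variance pooled over genes. That prior had a median of 39.86 degrees of freedom, against 2 residual ones, so for most genes the pooled spread weighs more than the gene's own. edgeR 4.0.16 on the recovered reads called 1521 genes higher in VMHpvlm and 1510 higher in VMHpvll, and DESeq2 1.42.0 was a further alternative. Shares and ratios were compared by two-sided exact permutation tests that did not use the pairs.

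The members and gene lists were chosen with earlier results of these data known. The named genes are the 7 members, up to 4 called genes of each pathway list by smallest p, Pomc, and the 3 genes most correlated with each member; marker genes and those said to be chosen later come in addition. Exon lengths and positions are from GENCODE M21, which holds 96.22% of tested symbols, and promoters are from RefSeq on GRCm38.p6. The fit was also run on simulated counts without pair effects and with a spread that followed the trend over genes. That run does not bear on genes whose own spread departs from the trend.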

Additional observations from a re-analysis of the deposited data

How the results depend on the processing

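Oprd1 and Oprk1 kept their direction and call under all 14 alternatives, at log2 differences of 1.46 to 1.79 and 1.04 to 1.22. Penk (0.47 to 0.64) and Oprm1 (-0.66 to -0.50) did so under 13, and Pdyn (0.37 to 0.72) under 12. With a prior variance without trend or robust weights, Penk (0.53), Pdyn (0.60) and Oprm1 (-0.59) missed the threshold, so that 2 members were higher in VMHpvlm and 0 in VMHpvll, against 4 and 1; the pathway counts were 4 and 2, against 12 and 10, and the counts over all genes 189 and 233, against 1528 and 1377. The cause was not tested. With DESeq2, Pdyn stood at 0.59, the pathway counts at 7 and 4, and those over all genes at 648 and 582. With no replicate block the pathway counts were 6 and 7 and those over all genes 937 and 863, and the calls of the 7 members did not change. Leaving out 1 pair at a time gave pathway counts of 7 to 15 higher in VMHpvlm and 6 to 10 higher in VMHpvll, and 935 to 1511 and 838 to 1361 genes over all. Oprl1 ranged from -0.084 to 0.021 in these fits and turned positive (0.021) without the F20 pair, uncalled throughout. Since the block needs both libraries of a pair, leaving out 1 library removes its pair. Pnoc was not called under 13 alternatives and fell below a minimum mean of 50 in the other one. Without division by length, the differences in receptor share were -6.33 percentage points for Oprm1, 9.15 for Oprk1 and -5.76 for Oprl1, against -3.29, 4.59 and -4.62. Of 22 called pathway genes, 5 (Ogfrl1, Opcml, Pcsk1, Rgs4 and Kcnj3) were called under all 14 alternatives, and 0 changed direction. Depth limits Pnoc, at 21 to 27 reads a library, and Oprd1 in VMHpvll, at 15 to 26.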
